A study of Mus musculus with 4 samples.

Results

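Il24, Tnf, Il23a and Lif are 4 genes of secreted signalling proteins whose expression was higher in mouse keratinocytes cultured with interleukin-4 (IL-4). They were taken as the 4 transcript clusters, the probe groups that stand for a gene on this array, whose symbol in the authors' deposited tables is exactly one of these names. They are 4 of 22206 transcript clusters measured and of 3059 that these tables pair with a single symbol. The genes were selected on their rises with IL-4 in these same arrays, and on whether the rises were kept or smaller in the knockout, so the IL-4 differences and the genotype differences below are descriptions and no test supports the choice. All 4 were in the deposited table of untreated against IL-4-treated wild type cells, and 3 of them, all but Il23a, were in the table of wild type against knockout cells with IL-4.

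The cells were primary keratinocytes, the cells that build the epidermis, taken from male wild type (WT) mice and from male mice labelled HMGB1 KO, which the design text calls K5-HMGB1. HMGB1 binds chromatin in the nucleus and serves as a danger signal once outside the cell. How the allele was made, the age of the mice and the number of animals behind a culture are not given in the sources used here. Cells of each genotype were cultured for 12 h in EpiLife medium, untreated or with recombinant IL-4 at 100 ng/ml, and each of the 4 groups was measured on 1 Affymetrix Clariom S Mouse array. With 1 array per group no value has a replicate error, no p-value was computed, and precision is limited by this number of arrays. Values are the deposited log2 expression values, and every difference is a log2 difference between arrays. Fold sizes and the 2-fold threshold take this scale at face value. The scale may be stretched, in which case the folds below are overstated.

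IL-24 belongs to the interleukin-10 family and acts on epithelial cells through receptors built from the IL-20 and IL-22 receptor chains. TNF is the founding ligand of its superfamily, is released from the cell surface by a protease and activates NF-kB through its receptors. Il23a encodes the p19 subunit of IL-23, which is active only when paired with the p40 subunit it shares with IL-12. LIF is an interleukin-6 type cytokine that signals through the LIF receptor and gp130 to STAT3. In skin, TNF and IL-23 are known for their part in psoriasis, and IL-24 for its expression in inflamed and wounded epidermis.

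The genes lie on 4 chromosomes, in coordinates of GRCm38, the mm10 build that the file headers name. Il24 (transcript cluster TC0100003048.mm.2) is at chr1:130882074-130887411. Tnf (TC1700001954.mm.2) is at chr17:35199367-35202007. Il23a (TC1000003135.mm.2) is at chr10:128296140-128298084. Lif (TC1100000041.mm.2) is at chr11:4257568-4272514. All are protein-coding in RefSeq. RefSeq's promoter table for GRCm38.p6 matched 2 of the 4 genes, Tnf and Lif, and not Il24 and Il23a. The 250 bases before the start of these 2 genes are shown; both rose in WT, and in the knockout with IL-4 they stood on opposite sides of WT. The Tnf window is on the minus strand at chr17:35202008-35202257 and the Lif window on the plus strand at chr11:4257318-4257567. Both read 5′ to 3′, and capitals mark matches to the motifs searched.
Tnf: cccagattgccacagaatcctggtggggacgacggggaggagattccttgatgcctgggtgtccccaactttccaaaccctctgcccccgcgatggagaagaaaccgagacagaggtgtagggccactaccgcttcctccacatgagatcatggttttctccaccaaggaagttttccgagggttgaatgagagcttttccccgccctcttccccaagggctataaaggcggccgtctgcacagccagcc
Lif: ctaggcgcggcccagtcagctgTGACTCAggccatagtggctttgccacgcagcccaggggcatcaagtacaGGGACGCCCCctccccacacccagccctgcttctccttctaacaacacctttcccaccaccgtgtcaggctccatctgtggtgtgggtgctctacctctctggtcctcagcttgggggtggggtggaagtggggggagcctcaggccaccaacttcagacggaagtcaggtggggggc

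The motifs were searched on both strands: AP-1 (TGANTCA), the STAT motif with 3 spacer bases (TTCNNNGAA), the STAT6 type with 4 (TTCNNNNGAA), CRE (TGACGTCA) and NF-kB. The Lif window held an AP-1 match, TGACTCA, at -228 to -222 from the start and an NF-kB match, GGGACGCCCC, at -178 to -169, and they did not overlap. The Tnf window held none of the 5 motifs as searched, and variants of them were not searched. Of 32817 promoter windows of this length, 6.75% held the AP-1 motif, 7.25% the NF-kB motif, 7.01% and 5.85% the STAT motifs with 3 and 4 spacer bases, and 1.55% CRE. A match is a string of letters and not a shown binding site, and these windows end at 250 bases. Nor does the lack of a match show that a binding site is absent.

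The targeted gene was read first. On the log2 scale Hmgb1 was at 14.71 in untreated WT, 14.17 in WT with IL-4, 7.97 in untreated KO and 7.60 in KO with IL-4, so both KO arrays were below both WT arrays. The array has 5222 negative control rows, and 9.21, the 95th percentile of all their values, serves as the level under which a value is called dim. Of these rows, 27.7% differed at least 2-fold in either direction between the WT arrays with and without IL-4. Between the untreated KO and WT arrays 23.1% did. Most control values are dim by definition, so the shares of control rows describe dim rows and not brighter ones. Among transcript clusters, "rose" and "fell" stand for a change of 2-fold or more in a cluster where the highest of the 4 values reached 5.13, the median of all cluster values, which left 11854 clusters.

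All 4 cytokine genes rose with IL-4 in both genotypes. At least 2-fold rises made up 10.7% of the 11854 clusters in WT and 8.93% in KO, and because the genes were picked for this contrast nothing is read from the count. The genes parted in the knockout: the rises of Il24 and Lif were as large as in WT or larger, and those of Tnf and Il23a were smaller.

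**Figure D1:**
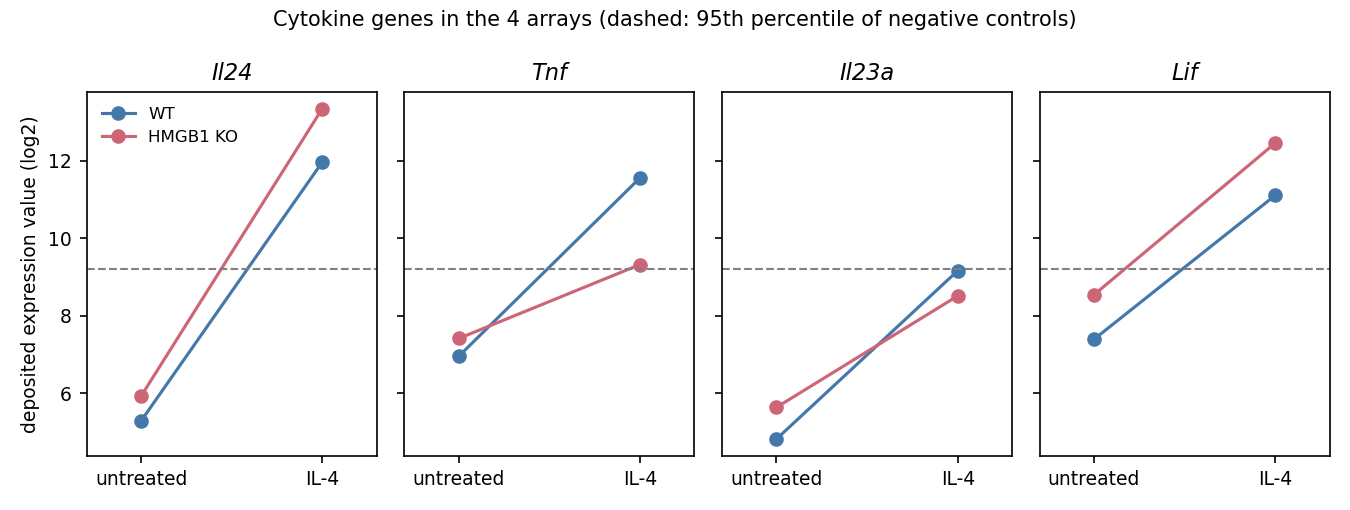
Deposited log2 values (y axis) of the 4 cytokine genes in untreated and IL-4-treated cells (x axis), 1 array per point, with a line joining the arrays of a genotype (blue WT, red HMGB1 KO). The dashed line at 9.21 is the level below which values are called dim. The KO line ends above the WT line for Il24 and Lif and below it for Tnf and Il23a.

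Il24 had log2 values of 5.28 in untreated WT, 5.92 in untreated KO, 11.97 in WT with IL-4 and 13.35 in KO with IL-4. The untreated arrays were both dim and the IL-4 arrays both well above the control level, with KO the highest. The gene rose by 6.68 in WT, 103-fold, and by 7.43 in KO, 172-fold. A rise of this size was seen in 6 of the 5222 negative control rows in WT and in none of them in KO. With every value below 9.21 raised to that level, the rises were 2.76 in WT and 4.13 in KO, which are lower bounds that do not rest on the dim untreated values.

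Lif had log2 values of 7.39 in untreated WT, 8.54 in untreated KO, 11.11 in WT with IL-4 and 12.46 in KO with IL-4. KO was above WT under both treatments, and both IL-4 arrays were above both untreated arrays. Lif rose by 3.72 in WT, 13.2-fold, and by 3.91 in KO, 15.1-fold. The 2 rises differed by 0.20, less than the 0.54 that is the robust SD of this difference over all clusters tested. With dim values raised to 9.21 the rises were 1.90 in WT and 3.24 in KO, so the near equality of the rises rests on the dim untreated values.

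Tnf had log2 values of 6.95 in untreated WT, 7.41 in untreated KO, 11.56 in WT with IL-4 and 9.32 in KO with IL-4. Only the WT array with IL-4 was well above the control level, and the KO array with IL-4 lay just over it. Tnf rose by 4.61 in WT, 24.5-fold, and by 1.91 in KO, 3.75-fold, so that on the log2 scale the KO rise was 41.3% of the WT rise. A rise of at least the KO size was found in 4.0% of the negative control rows, against 0.364% for the WT size. With dim values raised to 9.21, Tnf rose by 2.35 in WT and was 0.10 higher in KO.

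Il23a had log2 values of 4.81 in untreated WT, 5.63 in untreated KO, 9.16 in WT with IL-4 and 8.51 in KO with IL-4. All 4 values were dim, including the highest, so the sizes for this gene are the least certain of the 4. Il23a rose by 4.36 in WT, 20.5-fold, and by 2.88 in KO, 7.37-fold, and the KO rise was 66.1% of the WT rise on the log2 scale. A rise of at least that size was found in 0.460% of the negative control rows in WT and in 1.24% in KO. With dim values raised to 9.21 all 4 values were equal and no difference remained. The p40 subunit gene Il12b, which p19 needs as a partner, has no single symbol in the 2 deposited tables and was not analysed here.

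**Figure D2:**
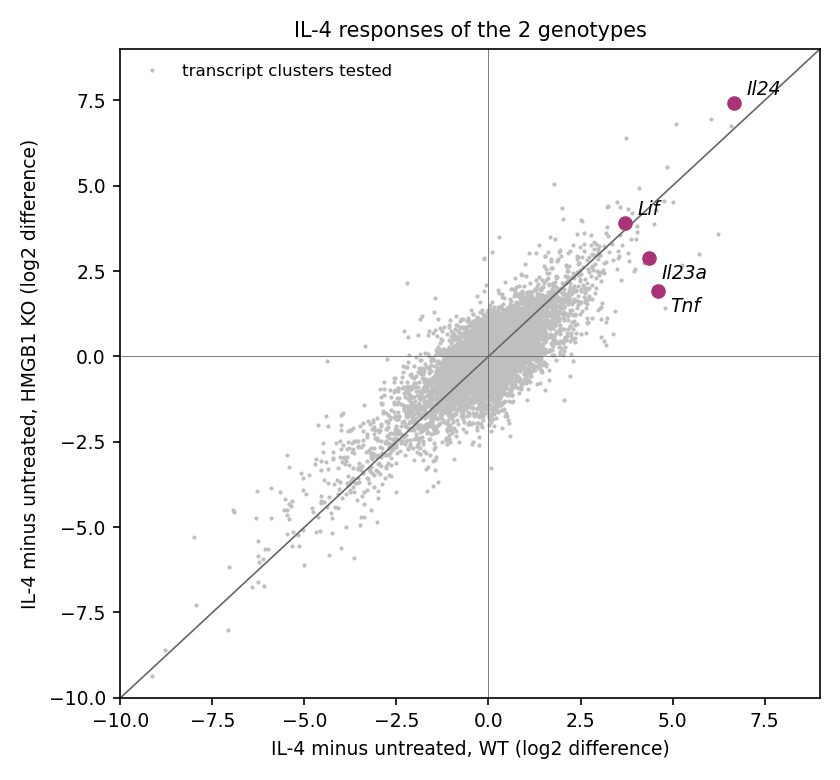
IL-4 minus untreated log2 difference in WT (x axis) and in HMGB1 KO (y axis) for 11854 transcript clusters (grey) and the 4 cytokine genes (purple, named); the diagonal marks equal responses. Il24 is at the top right end, Lif lies near the diagonal, and Il23a and Tnf lie below it at 4.36 and 2.88, and at 4.61 and 1.91.

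The comparison of KO with WT cells without IL-4 shows where the genes started. All 4 were higher in untreated KO, by 0.46 for Tnf, 0.63 for Il24, 0.82 for Il23a and 1.15 for Lif. Lif alone passed 2-fold, where 1.35% of clusters were at least 2-fold higher and 3.16% lower. All 8 untreated values were dim, and 25.1% of the negative control rows were higher in KO by at least the amount of Tnf and 8.18% by at least that of Lif, counting the upward direction alone. The untreated differences are therefore of a size that control rows often show.

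With IL-4 the genes stood on opposite sides of WT. Il24 was 1.38 higher in KO, 2.60-fold, and Lif was 1.35 higher, 2.54-fold. Tnf was 2.24 lower on the log2 scale (KO minus WT -2.24), 4.74-fold, and Il23a differed by -0.65, which did not pass 2-fold. In this comparison 1.7% of clusters were at least 2-fold higher and 3.78% at least 2-fold lower in KO. Counting the same direction alone, 2.72% of the negative control rows were lower in KO by at least the amount of Tnf and 22.0% by that of Il23a, while 6.49% were higher by at least the amount of Il24 and 6.80% by that of Lif. The differences of Il24, Tnf and Lif use IL-4 values above 9.21 in both genotypes and did not change when dim values were raised. Most control values lie below 9.21, so the control shares describe dimmer rows than these genes with IL-4.

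The difference between the IL-4 responses, KO minus WT, was -2.71 for Tnf, -1.48 for Il23a, 0.20 for Lif and 0.74 for Il24. The response of Tnf was 6.53-fold smaller in KO, and 3.20% of the negative control rows had a shortfall of at least that size. For Il23a, dim in all 4 arrays, 11.8% of the control rows had at least its shortfall, and none remained with dim values raised to 9.21. For Il24 and Lif, 24.4% and 43.7% of the control rows had at least their excess. In all, 4.59% of clusters had a response at least 2-fold larger in KO and 5.8% at least 2-fold smaller. This difference uses the same arrays as the rises above and is no further evidence. For Lif the genotype difference was close under both treatments, at 1.15 and 1.35, whereas for Tnf it went from 0.46 to -2.24.

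Of the families these ligands belong to, few other members could be read. Among 7 listed ligands of the interleukin-10 family, 5 of the interleukin-12 family and 9 of the gp130 family, the cytokine described here was the sole gene with a single symbol in the tables. Listed genes without such a symbol were not analysed here. Among 18 TNF superfamily ligands, Tnfsf15, which encodes the cytokine TL1A, rose by 1.80 in WT and was 0.47 higher in KO, with values of 5.24 and 5.86 untreated and 7.04 and 6.33 with IL-4. Like Tnf, it had the highest of its 4 values in WT with IL-4, and all 4 were dim. Tnfsf15 has a symbol only through its rise in WT. Its likeness to Tnf rests on the value that gave it the symbol, and nothing is read from it. Tnfsf18 did not reach the level filter.

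Among the receptor chains of these ligands, those of IL-24, TNF and IL-23 that could be read were lower with IL-4. Of 11 listed receptor chains of the 4 cytokines 6 had a symbol, and 5 of these fell and none rose in each genotype. At least 2-fold falls made up 9.26% of clusters in WT and 9.33% in KO. The median of the 6 was -1.76 in WT and -1.72 in KO, against 0.09 and 0.07 over all clusters tested. Listed genes have a symbol only where they differed at least 2-fold in a deposited table. Here and in the lists below, the counts and medians therefore describe the genes that could be read and not the list. Both deposited comparisons use the WT array with IL-4, so genes that are high or low in that array are favoured. A lower count in KO than in WT can follow from this choice alone, and nothing is read from it.

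The 3 named chains of the IL-24 receptors all fell. Il22ra1, the chain shared with the IL-22 receptor, had values of 8.97 in untreated WT, 7.91 in untreated KO, 6.30 in WT with IL-4 and 5.30 in KO with IL-4, with IL-4 differences of -2.67 and -2.61. Il20rb, the chain common to both IL-24 receptors, went from 10.26 to 8.61 in WT and from 10.34 to 9.02 in KO, differences of -1.65 and -1.32. Il20ra had differences of -2.04 in WT and -2.68 in KO, at values of 6.46 and less. Il22ra1 was also lower in KO than in WT, by -1.06 untreated and -1.0 with IL-4, while Il20ra was higher by 1.70 and 1.06. Il22ra1 and Il20ra were dim in all 4 arrays. The Il20rb values, in which the untreated arrays were above 9.21, did not differ 2-fold between genotypes.

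Tnfrsf1a, the TNF receptor that most cell types carry, was well above the control level in every array, at 13.00 in untreated WT, 13.07 in untreated KO, 11.13 in WT with IL-4 and 11.31 in KO with IL-4. It fell by 1.87 in WT and fell by 1.76 in KO, and the genotypes differed by 0.18 with IL-4. Il23r, the specific chain of the IL-23 receptor, had differences of -1.08 and -1.68 at dim values of 6.27 and less. Lifr, the LIF receptor, differed with IL-4 by -0.14 in WT and -0.07 in KO, and was higher in KO by 1.02 untreated and 1.08 with IL-4, also at dim values. Lifr has a symbol only through its genotype difference with IL-4.

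**Figure D3:**
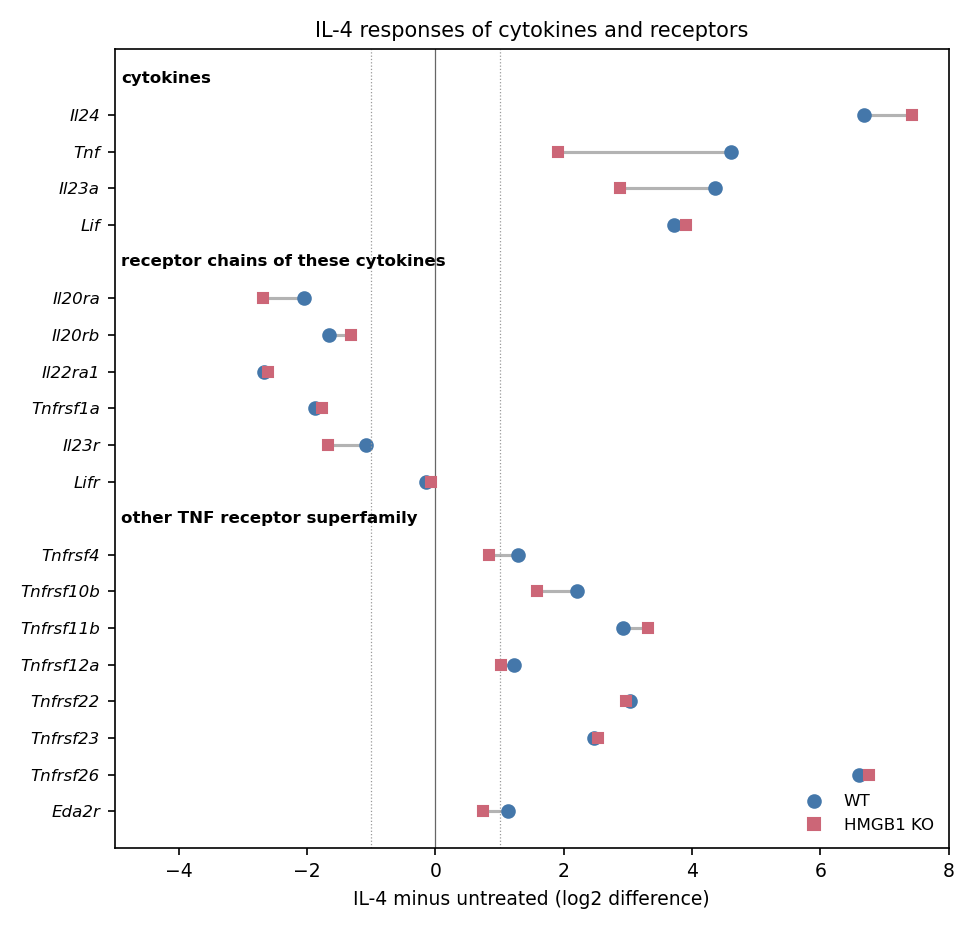
IL-4 minus untreated log2 difference (x axis) of the 4 cytokine genes, the named receptor chains of these cytokines and the other named genes of the TNF receptor superfamily (y axis), in WT (blue circles) and HMGB1 KO (red squares), 1 difference of 2 arrays per symbol. Dotted lines mark 2-fold. Of the receptor chains 5 of 6 lie to the left of the 2-fold line in both genotypes, and the 8 other TNF receptor superfamily genes lie to the right of 0.

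Of 28 listed genes of the TNF receptor superfamily 9 had a symbol and 19 could not be read. Of the 9, 8 rose and 1, Tnfrsf1a, fell in WT, where 10.7% of all clusters rose and 9.26% fell. In KO 6 rose and 1 fell, where 8.93% of all clusters rose and 9.33% fell. The medians of the 9 were 2.20 and 1.58. Tnfrsf26, a mouse TNF receptor homologue, went from 7.05 to 13.65 in WT and from 7.98 to 14.74 in KO, rises of 6.60 and 6.76. Tnfrsf22 and Tnfrsf23, which encode decoy receptors for the death ligand TRAIL, rose by 3.03 and 2.47 in WT and by 2.97 and 2.54 in KO. Tnfrsf11b, which encodes the decoy receptor osteoprotegerin, went from 11.29 to 14.22 in WT and from 11.03 to 14.34 in KO. Tnfrsf10b, a TRAIL receptor, rose by 2.20 and 1.58, and Tnfrsf12a, the receptor of the ligand TWEAK, by 1.22 and 1.02. None of the 9 had a response that differed 2-fold between genotypes. Over all clusters, 4.59% had a response at least 2-fold larger in KO and 5.8% at least 2-fold smaller, so nothing is read from this count.

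Genes that release TNF or carry its receptor signal were read next. Of 23 listed genes 9 had a symbol; 7 rose and 2 fell in WT, where 10.7% of all clusters rose and 9.26% fell, and 6 rose and 1 fell in KO, where 8.93% rose and 9.33% fell. Their medians were 1.4 and 1.39. Map3k14, the NF-kB inducing kinase of the alternative NF-kB pathway, had values of 7.72 in untreated WT, 7.42 in untreated KO, 11.54 in WT with IL-4 and 10.20 in KO with IL-4. It rose by 3.82 in WT and 2.78 in KO and was lower in KO with IL-4 by -1.34. Timp3, an inhibitor of the protease that sheds TNF, had differences of -2.24 in WT and -1.66 in KO. Its KO minus WT differences were -2.14 untreated and -1.56 with IL-4. Timp3 was at 9.44 in untreated WT and dim in the other 3 arrays. Cflar, an inhibitor of death receptor signalling, rose by 2.30 and 1.98, and Birc3, an inhibitor of apoptosis bound to TNF receptor complexes, by 1.4 and 1.11. Map3k8, a kinase upstream of ERK, fell by 1.33 in WT and differed by 0.06 in KO, at dim values.

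Of 18 listed genes of NF-kB subunits and feedback inhibitors 8 had a symbol and the others could not be read. Of the 8, 7 rose and 1 fell in WT, where 10.7% of all clusters rose and 9.26% fell. In KO 5 rose and 1 fell, where 8.93% of all clusters rose and 9.33% fell. The medians of the 8 were 1.60 and 1.54. Tnfaip3, which encodes the NF-kB inhibitor A20, had values of 12.15 in untreated WT, 12.27 in untreated KO, 15.20 in WT with IL-4 and 14.75 in KO with IL-4, rises of 3.05 and 2.48. Nfkb2, a subunit of the alternative pathway, rose by 2.29 and 1.89, and Tnfaip2, a TNF-induced gene, by 3.0 and 3.25. Bcl3, an atypical IkB protein, fell in both genotypes, with differences of -2.79 and -3.20. The response difference of these 8 genes lay between -0.72 (Cyld, a deubiquitinase) and 0.28 (Tnip1, an A20-binding protein), against -2.71 for Tnf, and the contrast with Tnf was not tested.

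**Figure D4:**
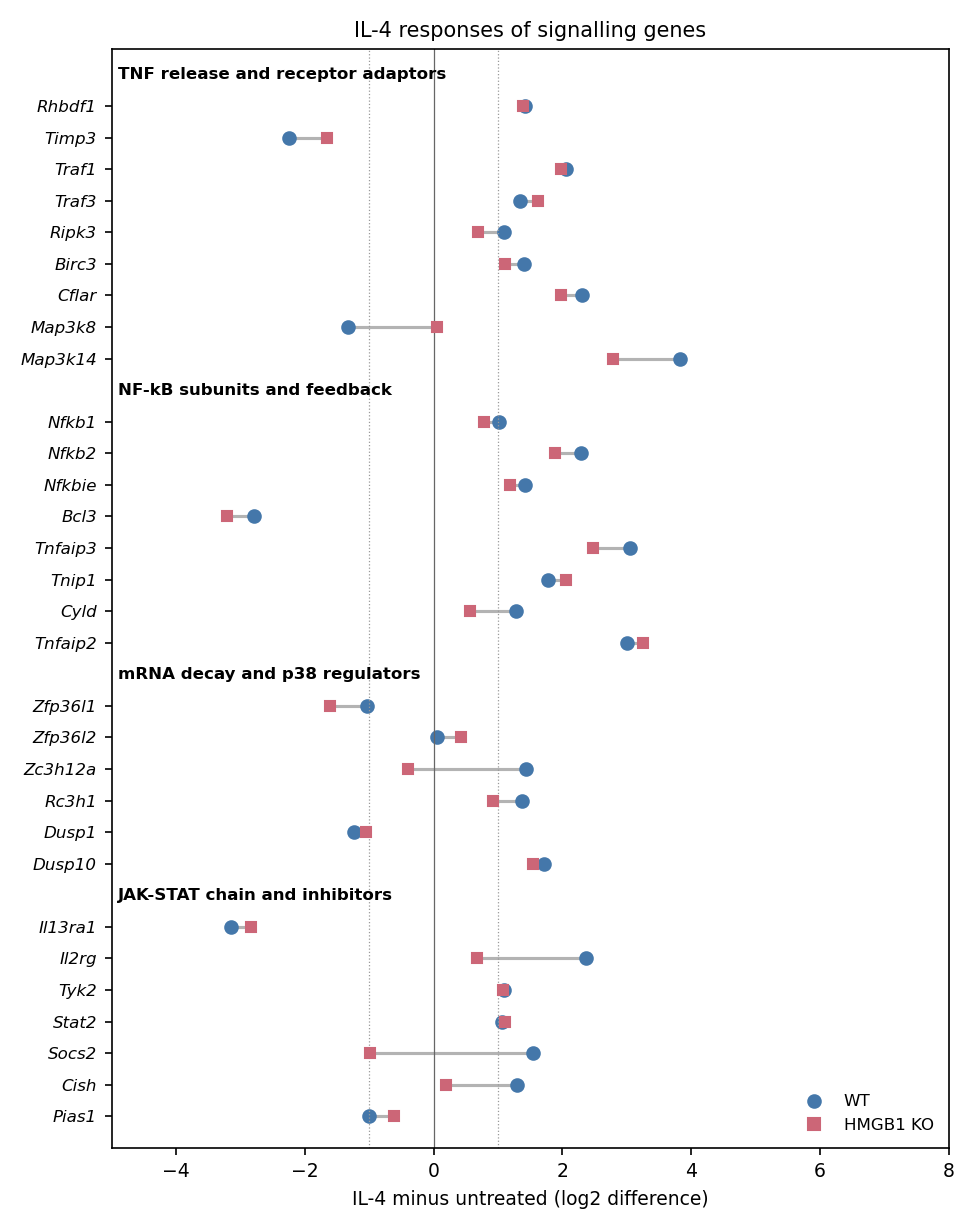
IL-4 minus untreated log2 difference (x axis) of named genes (y axis) of TNF release and receptor signalling, NF-kB subunits and feedback, mRNA decay and p38 regulation, and the JAK-STAT chain, in WT (blue circles) and HMGB1 KO (red squares), 1 difference of 2 arrays per symbol. Dotted lines mark 2-fold. The widest gaps between genotypes are at Socs2, Zc3h12a and Il2rg, where the KO symbol lies to the left of the WT symbol. Socs2 was dim in all 4 arrays and Il2rg in 3.

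Regulators of cytokine mRNA stability that could be read were divided. Of 17 listed genes of AU-rich mRNA decay and p38 signalling 6 had a symbol; 3 rose and 2 fell in WT, and 1 rose and 2 fell in KO, against 10.7% and 9.26% of all clusters in WT and 8.93% and 9.33% in KO. Zc3h12a encodes an RNase that degrades inflammatory mRNAs, and its values were 9.90 in untreated WT, 10.49 in untreated KO, 11.34 in WT with IL-4 and 10.10 in KO with IL-4. All 4 were above the control level. It rose by 1.44 in WT and differed by -0.39 in KO, a response difference of -1.83, and was lower in KO with IL-4 by -1.23. Zfp36l1, which encodes an AU-rich element binding protein, fell by 1.04 in WT and fell by 1.60 in KO. Dusp1, a phosphatase of p38 and JNK, fell too, with differences of -1.24 and -1.05, and Dusp10, another such phosphatase, rose by 1.72 and 1.55.

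On the path from IL-4 itself, 7 of 24 listed JAK-STAT genes had a symbol; 5 rose and 2 fell in WT, and 2 rose and 1 fell in KO. Over all clusters, 10.7% rose and 9.26% fell in WT, and 8.93% rose and 9.33% fell in KO. Il2rg, the common gamma chain of the type I IL-4 receptor, had values of 7.19 in untreated WT, 7.57 in untreated KO, 9.56 in WT with IL-4 and 8.24 in KO with IL-4. Il2rg rose by 2.37 in WT against a difference of 0.68 in KO, and only its value in WT with IL-4 was not dim. Il13ra1, the second chain of the type II receptor that epithelial cells use, fell by 3.15 in WT and fell by 2.83 in KO. Socs2 and Cish, feedback inhibitors of cytokine signalling, rose by 1.55 and 1.29 in WT and differed by -0.98 and 0.19 in KO. Their values reached 8.41 at most, so both were dim throughout. Il2rg, Socs2 and Cish were the 3 of these 7 genes whose response was at least 2-fold smaller in KO, as in 5.8% of all clusters. Each differed at least 2-fold in both deposited comparisons, which share the WT array with IL-4. A smaller KO response was thus favoured by the way these genes came to have a symbol, and nothing is read from the count.

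For each cytokine the 5 named genes with the most similar values were found, by the Euclidean distance between their 4 log2 values after subtracting each gene's mean. Only genes with a symbol in the tables could be found, so the distances describe likeness over 4 arrays and nothing more. Tnf was closest to Rgs16, a regulator of G protein signalling, at a distance of 0.56, then to the matrix metalloproteinase gene Mmp9 (0.84), Map3k14 (0.84), the complement gene C3 (0.99) and Irs1 (1.11), an insulin receptor substrate. All 5 rose in WT, rose less in KO, and were at least 2-fold lower in KO with IL-4, from -1.20 for Irs1 to -3.01 for Rgs16. The 5 were picked for likeness to Tnf over these same values, so the shared pattern says nothing further about Tnf. Irs1 was dim in all 4 arrays, and Rgs16 and C3 in 3. Map3k14 was the sole one of the 5 that also stood on a list above.

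Il24 was closest to Tnfrsf26 at 0.48, and the next, Aldh3a1, an aldehyde dehydrogenase, was at 1.53. Lif was closest to the fibronectin gene Fn1 (0.32) and to Ddah1 (0.39), which encodes an enzyme that breaks down a nitric oxide synthase inhibitor. Fn1 had values of 11.96 in untreated WT, 13.28 in untreated KO, 15.99 in WT with IL-4 and 16.92 in KO with IL-4, all above the control level. Its genotype differences were 1.32 untreated and 0.93 with IL-4. It was picked for its likeness to Lif over these same values, so the likeness says nothing further about Lif. Il23a was closest to the sialyltransferase gene St3gal1 at 0.17, and to Cyp1b1, a cytochrome P450, and Edn1, which encodes endothelin-1, both at 0.43. Edn1 was above the control level in every array, at 10.07, 11.07, 14.03 and 13.59 in untreated WT, untreated KO, WT with IL-4 and KO with IL-4. Among the cytokines themselves, Tnf and Il23a were the closest pair at 1.21 and Il24 and Tnf the most distant at 4.58.

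**Figure D5:**
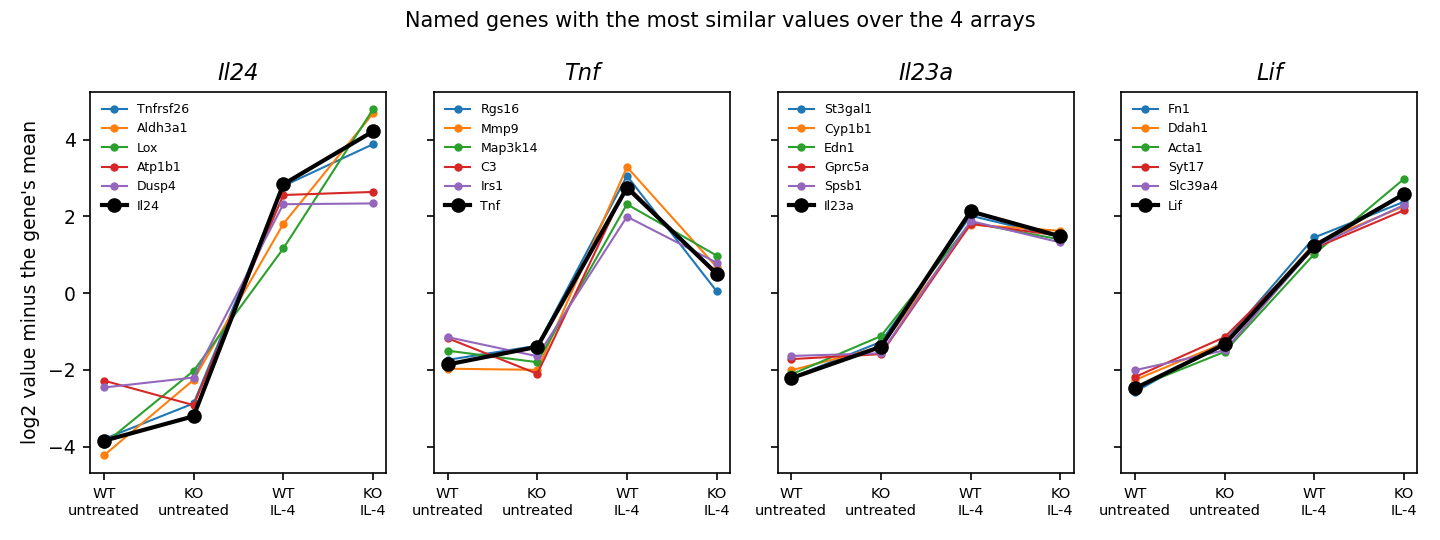
Log2 value minus the gene's own mean over the 4 arrays (y axis) in each array (x axis), for each of the 4 cytokine genes (black) and its 5 nearest named genes (colours), 1 array per point. The KO array with IL-4 is the highest point for Il24 and Lif and lies below the WT array with IL-4 for Tnf and Il23a and for their 5 nearest genes.

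Markers of cells other than keratinocytes were read because leukocytes and fibroblasts also make these cytokines. In bulk cultures a change in the number of cells of a type and a change of RNA per cell cannot be told apart. Of 11 listed myeloid markers 2 had a symbol: Cd68, a lysosomal protein gene, was at 13.18 in untreated WT, 11.53 in untreated KO, 10.71 in WT with IL-4 and 10.15 in KO with IL-4, and Cd14 lay between 4.39 and 5.90. The 2 values summed to 17.6, 16.1, 16.6 and 15.9 in the same order. None of 6 markers of Langerhans and other antigen-presenting cells had a symbol. Cd3g and Cd4, of 8 T cell markers, were dim, with a highest value of 6.37.

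Of 9 fibroblast markers 2 had a symbol, Vim and Sparc, and their values summed to 21.5 in untreated WT, 23.4 in untreated KO, 19.8 in WT with IL-4 and 23.5 in KO with IL-4. Of 5 melanocyte markers 4 had a symbol, with sums of 38.3, 37.6, 31.9 and 35.8 in the same order. With IL-4, Vim, Sparc, Dct and Tyrp1 were at least 2-fold higher in KO than in WT, as were 1.7% of all clusters. Pmel (0.68) and Tyr (0.08) were not, and Tyr did not reach the level filter. Vim, Sparc and Tyrp1 differed less than 2-fold between the WT arrays, so they have a symbol only through this genotype difference. For these genes the outcome was fixed in advance and nothing is read from it. Of 5 mast cell markers Kit had a symbol, at 6.89, 6.11, 5.44 and 6.90 in the same order, and of 4 endothelial markers Kdr, at 3.96, 3.77, 5.30 and 4.42. The part of any of these cells in the cytokine values was not tested. Of 9 keratinocyte markers 3 had a symbol: Krt1 was at 16.62 and 17.35 in untreated WT and KO and at 7.49 and 7.99 with IL-4, Krt10 also fell, with differences of -5.17 and -5.24, and Itgb4, a hemidesmosome integrin, was at 14.96 or more in all arrays. The basal keratins Krt5 and Krt14 have no single symbol in the tables and were not analysed here.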

How the data were processed

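Total RNA (100 ng per array) from 4 cultures, 1 per group, was hybridised to Clariom S Mouse arrays. Per the submitters' processing notes, the authors made the deposited log2 values with RMA in Affymetrix Expression Console 1.4; RMA corrects background and makes array distributions alike, and array medians lay between 5.10 and 5.15. Cluster values reach 19.8, above the 16 of a 16-bit scanner, so the deposited values may be on a stretched log2 scale. Fold sizes would then be overstated. The authors' 2 deposited comparison tables hold log2 values and a signed fold change (score), positive where the first sample is higher, per the file headers and values, and gave the gene symbols.

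Differences, 2-fold counts, control shares and distances were computed with Python 3.11.15 (numpy 2.4.6, pandas 2.3.3), cyclic loess with limma 3.58.1, and the counting was tested on simulated data. Named genes were the 4 cytokines, genes of fixed lists and the 5 nearest of each cytokine. The 4 genes and the lists were chosen with earlier results of these data known. Alternatives were 3 scalings, a floor, the authors' table, other level filters and other folds. Number of arrays limits the precision.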

Additional observations from a re-analysis of the deposited data

Results flagged for a closer look

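Tnf drew attention because the KO minus WT difference had opposite signs in the 2 treatments: it was 0.46 in untreated cells and -2.24 with IL-4. Il23a did so too, at 0.82 untreated and -0.65 with IL-4. Each sign rests on 1 array per group, the untreated values of both genes and all values of Il23a were dim, and the change of sign was not tested.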

How the results depend on the processing

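Subtracting array medians, quantile normalization and cyclic loess each kept all 20 differences of the 4 cytokine genes within 0.38 of the reported value, or 0.54 for the difference of responses, and so did the 7 differences held by the authors' deposited tables. Cyclic loess shifted the median response of all clusters tested by -0.10 in WT and -0.08 in KO, and the other scalings by less. With cyclic loess 1047 clusters rose and 1266 fell in WT, against 1265 and 1098 as reported. In KO 900 rose and 1242 fell, against 1058 and 1106. The balance of rises and falls over all clusters therefore depends on the scaling. Raising dim values to 9.21 moved 16 of the 20. The WT rises became 2.76 (Il24), 2.35 (Tnf), 0 (Il23a) and 1.90 (Lif), the KO rises 4.13, 0.10, 0 and 3.24, and all 4 untreated genotype differences 0. With IL-4 the difference of Il23a became 0, while those of Il24, Tnf and Lif did not move. The response difference became 1.38 for Il24, 0 for Il23a and 1.35 for Lif. Counts of clusters past the threshold depended on it. The WT response had 2363, against 1465 with the level filter at 9.21, 4604 at 1.5-fold and 693 at 4-fold. The KO response had 2164, against 1374, 4451 and 592. The untreated genotype difference had 534, against 250, 2022 and 39. The genotype difference with IL-4 had 650, against 321, 2335 and 52. The response difference had 1232, against 564, 3502, 93 and, with no level filter, 1943. A level filter at the median of all rows, 5.33, chosen after seeing the data, kept every count within 1.5 times. No paired analysis was possible because each group has 1 array, and for the same reason no replicate could be left out.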

Other observations

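Genes that IL-20 type and IL-17 type cytokines are known to raise in keratinocytes were divided in the cultures in which Il24, Tnf and Il23a rose. Of 17 listed genes 13 had a symbol and 12 passed the level filter; 3 rose and 8 fell in WT, and 3 rose and 8 fell in KO. Over all clusters, 10.7% rose and 9.26% fell in WT, and 8.93% rose and 9.33% fell in KO. The medians over the 13 were -2.66 and -1.66, and these genes have a symbol only because they differed at least 2-fold in a deposited table. S100a8, a calprotectin subunit, had values of 14.15 in untreated WT, 13.08 in untreated KO, 9.78 in WT with IL-4 and 8.68 in KO with IL-4. Krt16, a keratin of activated epidermis, fell by 2.91 in WT and fell by 3.22 in KO, and Defb14, a beta-defensin, had differences of -2.56 and -1.33. The 3 that rose were S100a7a (3.24 in WT and 4.42 in KO), Cxcl1 (4.49 and 3.87) and Cxcl2 (2.98 and 3.07), the last a neutrophil attractant like Cxcl1. S100a7a and Cxcl2 were dim in all 4 arrays, and Cxcl1 in the 2 untreated arrays.

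The AP-1 subunit genes Fos and Jun, the 2 of 12 listed with a symbol, both fell in WT, with differences of -1.96 and -1.88, and Jun fell by 1.68 in KO while Fos differed by -0.78. Falls of at least 2-fold made up 9.26% of all clusters in WT and 9.33% in KO. Jun was above the control level in all 4 arrays, at 11.77 or more. Fos was at 9.43 in untreated WT and dim in the other arrays, at 8.23 or less.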
